A study of Homo sapiens with 42 samples.

Results

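JTE-607 (JTE) and imatinib (IM) were compared directly in the nuclear RNA of K562 cells after 1 h of treatment. K562 is an established human line from chronic myeloid leukemia. The comparison holds 6 of the 42 libraries of the series, chosen by their labels: 3 nuclear libraries of cells given 5 µM JTE (JTE 1h) and 3 of cells given 1 µM IM (IM 1h). The doses differ, so each value compares these 2 treatments as given, and not the compounds at 1 concentration. The 3 nuclear libraries of untreated cells (CTRL) stand beside them, and poly(A)-selected mRNA was measured in 6 further libraries of JTE 1h and IM 1h. All cells came from the same line, no vehicle is stated for CTRL, and the 3 libraries of a group are labelled as biological replicates. Nuclear RNA was depleted of ribosomal RNA, so it holds transcripts with and without a poly(A) tail.

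Most mRNAs get their 3′ end when a complex binds the hexamer AAUAAA in the new transcript and the nuclease CPSF73, encoded by CPSF3, cuts downstream of it. JTE-607 is a compound that acts on CPSF73. Where cutting is slow, RNA polymerase II carries on into the region behind the gene, and a gene that lies there can gather reads that did not start at its own promoter. Imatinib blocks the kinase BCR-ABL1, the fusion of BCR and ABL1 that drives K562 growth through STAT5 and the RAS-ERK cascade.

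The 6 nuclear libraries held 20421694 to 25103205 read pairs counted over exons, and CTRL held 19803825 to 22588484. Mitochondrial genes took 4.92 to 6.48% of the counts in these 9 libraries. The K562 markers HBG1, HBG2, HBE1, GATA1, TAL1, TFRC and LMO2 each had a mean of at least 1 CPM (counts scaled to 1000000 per library) in every group, while the T cell, B cell and monocyte lists each summed to under 7 CPM and the stromal and epithelial list, with 3 of 5 genes at a mean under 1 CPM, to 71.9 to 107 CPM. Levels are CPM after TMM scaling, differences are log2 fold changes of JTE 1h minus IM 1h with their standard error (SE), and a gene was called where its log2 fold change lay beyond 0.6 in either direction with an adjusted p under 0.05 (edgeR). The libraries give shares of RNA, so more RNA of 1 gene per cell and more cells with that RNA cannot be told apart.

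The called genes differed between the drugs mostly in one direction. Of 21929 genes tested in nuclear RNA, 1755 (8.0%) were called, 1627 (7.42%) of them higher with JTE 1h and 128 (0.584%) lower. The genes that were higher were low in level: 1591 of 1627 (97.8%) had a mean under 10 CPM, against 58.1% of all genes tested. Among genes with a mean of 10 CPM or more, 36 of 9188 were called higher and 18 lower. Called or not, 1680 of these 9188 had a log2 fold change above 0, with a median of -0.07. Against CTRL, which both contrasts share, 1868 genes (8.52%) were called with JTE 1h, 1536 (7.0%) higher and 332 (1.51%) lower, and 10 (0.0456%) with IM 1h, 1 (0.00456%) higher and 9 (0.041%) lower. Replicate numbers paired the libraries. The contrasts against CTRL were fitted only without the number as a block, so the tests against CTRL here and below take no account of the pairing. Between the drugs, with the number as a block, the lower count was 237. The lower count also depended on single libraries, with 58 genes left without JTE 1h replicate 1, 67 without IM 1h replicate 2, 82 without IM 1h replicate 3 and 80 without JTE 1h replicate 3.

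Among called genes with a mean of 5 CPM or more in the higher group, the largest difference belonged to OSBPL10, a member of the oxysterol-binding protein family at chr3:31657890-32077580 (− strand). It held 6.76, 5.71 and 6.62 CPM in the JTE 1h libraries against 0.162, 0.435 and 0.0986 CPM in the IM 1h libraries, and 0.134, 0.182 and 0.149 CPM in CTRL. IM 1h and CTRL overlapped, and all JTE 1h values stood above both (log2 fold change 4.69, SE 0.327, adjusted p = 3e-08, 25.8-fold). TSPOAP1, which encodes a binding partner of the mitochondrial protein TSPO, reached 152, 116 and 138 CPM with JTE 1h and 5.71, 6.00 and 9.37 CPM with IM 1h (log2 fold change 4.27, SE 0.313, adjusted p = 2.34e-06). TSPOAP1 starts 2124 bases past the 3′ end of MIR142HG on the same strand, and MIR142HG itself differed by a log2 fold change of -0.09. DENND2B, an exchange factor for Rab GTPases, held 37.6, 35.1 and 43.4 CPM against 2.64, 3.39 and 3.85 CPM (log2 fold change 3.55, SE 0.189, adjusted p = 1.07e-09).

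Of the other 7 of the 10 largest rises by this rule, 6 are named: AOC3 (an amine oxidase), ARL10 (an ARF-like GTPase), CTXND1, IFFO1 (of the intermediate filament family), the lncRNA MGC16275 and ZDHHC11 (a palmitoyltransferase), with log2 fold changes from 3.08 to 4.25. In none of these 9 genes did the JTE 1h and IM 1h libraries overlap, which was a condition for naming them. All 9 were also called higher with JTE 1h than in CTRL, and none passed the test between IM 1h and CTRL. Several lie beside or over more abundant genes. IFFO1 starts 780 bases behind NOP2 and its 3′ end is 1 base from that of GAPDH, MGC16275 and DENND2B overlap the ribosomal protein genes RPL38 and RPL27A on the opposite strand, and ZDHHC11 overlaps BRD9 on its own strand. No strand option is stated for the counting, and if both strands were counted, reads of such partners cannot be told apart in these values.

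**Figure D1:**
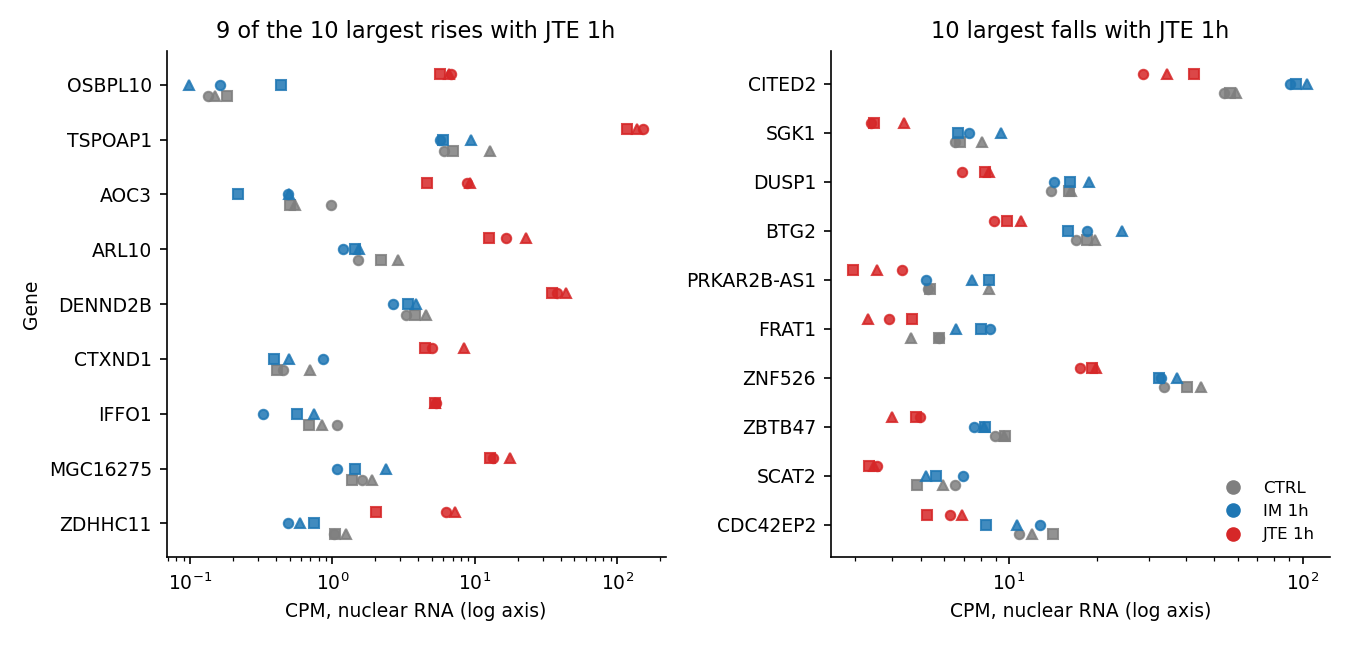
Nuclear RNA level in CPM (log axis) of 9 of the 10 genes that rose most and of the 10 that fell most with JTE 1h against IM 1h. Each point is 1 library, colored by group, with circles, squares and triangles for replicates 1, 2 and 3. In none of the 9 rises did IM 1h pass the test against CTRL, and in OSBPL10 they overlap (0.0986 to 0.435 CPM against 0.134 to 0.182 CPM). ZDHHC11 and AOC3 were lower in all IM 1h libraries than in CTRL (log2 fold changes -0.842 and -0.794). CITED2 is the 1 fall in which IM 1h passed the test above CTRL.

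To ask whether the genes that were higher lie where transcription past a 3′ end would reach, genes with a mean under 10 CPM were classed by position. Tandem genes start 1 to 10000 bases past the 3′ end of a gene of the same strand that has a mean of 10 CPM or more, and overlap no other gene with counts. Convergent genes have a 3′ end that faces, within 10000 bases, the 3′ end of such an expressed gene on the other strand. Isolated genes neither overlap nor lie within 10000 bases of any expressed gene. The 3′ ends of the upstream genes carry the signal at which CPSF73 would cut, so the last 30 bases before the annotated end are shown on hg38 for 4 genes that precede tandem genes named below, with AATAAA or ATTAAA in capitals.
PSME3 (before AOC3), chr17:42843729-42843758, + strand: gaAATAAAgtttcctcatcttccaccttgc
ASCC1 (before SPOCK2), chr10:72096032-72096061, − strand: aatcacttgtgAATAAAatgtttaacggtg
OGT (before GCNA), chrX:71575868-71575897, + strand: tAATAAAtgaatgatttccctttaatacgg
GSTO1 (before GSTO2), chr10:104267430-104267459, + strand: ctatgtctgatattttccttcactaatatg

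The first 3 hold the canonical hexamer, with 13 to 23 bases between it and the annotated end, and the window of GSTO1 holds neither form. AATAAA was in the same 30-base window of 49.5% of 9168 expressed genes, and ATTAAA alone in a further 12.5%. The window held either form in 63.5% of the 263 genes upstream of tandem genes that were called higher, and in 58.3% of the 379 genes upstream of the other tandem genes tested. A window without these letters does not show that a gene lacks a signal, since annotated ends can lie beyond the site in use.

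Tandem genes were higher with JTE 1h far more often than genes at large. Of 1043 tandem genes, 682 passed the filter on low counts, and 273 of these (40%) were called higher and 1 lower, beside 7.42% and 0.584% of all genes tested. Their median log2 fold change was 0.97, against -0.05 over all genes. Convergent genes were alike, with 298 of 699 tested called higher (42.6%) and 1 lower, and a median of 1.02. If both strands were counted, the values of convergent genes can hold reads from the strand of the facing gene. Of 4713 isolated genes, 372 (7.89%) were called higher and 25 lower, with a median of 0.03. All 3 classes hold only genes with a mean under 10 CPM, of which 1591 of 12741 (12.5%) were called higher and 110 lower, so that tandem and convergent genes lay above that share and isolated genes below it. As a gene can pass the filter through the group in which it is high, the count was also taken, by a limit chosen after seeing the data, over genes with a mean of 0.5 CPM or more in CTRL, libraries that the contrast does not use: 124 of 374 tandem genes (33.2%), 138 of 394 convergent genes (35%) and 99 of 2791 isolated genes (3.55%) were then higher, beside 4.5% of all 17881 such genes.

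Among the tandem genes that passed the filter, the difference varied with the distance from the upstream 3′ end. The median log2 fold change was 0.91 for the 205 tandem genes tested at up to 2000 bases, 1.17 for 238 at over 2000 and up to 5000 bases and 0.78 for 239 at over 5000 and up to 10000 bases. At over 10000 and up to 50000 bases it was 0.28 over 871 genes, of which 155 (17.8%) were called higher. The share called higher was also larger behind more abundant genes: 31.7% of the tandem genes tested were higher behind genes of 10 to 30 CPM, 40% behind genes of 30 to 100 CPM, and 45.6% behind genes over 100 CPM. The part that passed the filter differed too, with 205 of 276, 238 of 349, 239 of 418 and 871 of 2064 genes by distance. By upstream level it was 161 of 316, 280 of 421 and 241 of 306. As a gene can pass through the group in which it is high, and the limit by CTRL was not applied to these bins, the filter may add to these trends. Of 974 genes upstream of a tandem gene, 4 (0.411%) were called higher and none lower (edgeR), with a median of -0.08. By definition they have a mean of 10 CPM or more. Of all genes at that level 0.392% were called higher and 0.196% lower, with a median of -0.07, so the upstream genes were near that share.

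**Figure D2:**
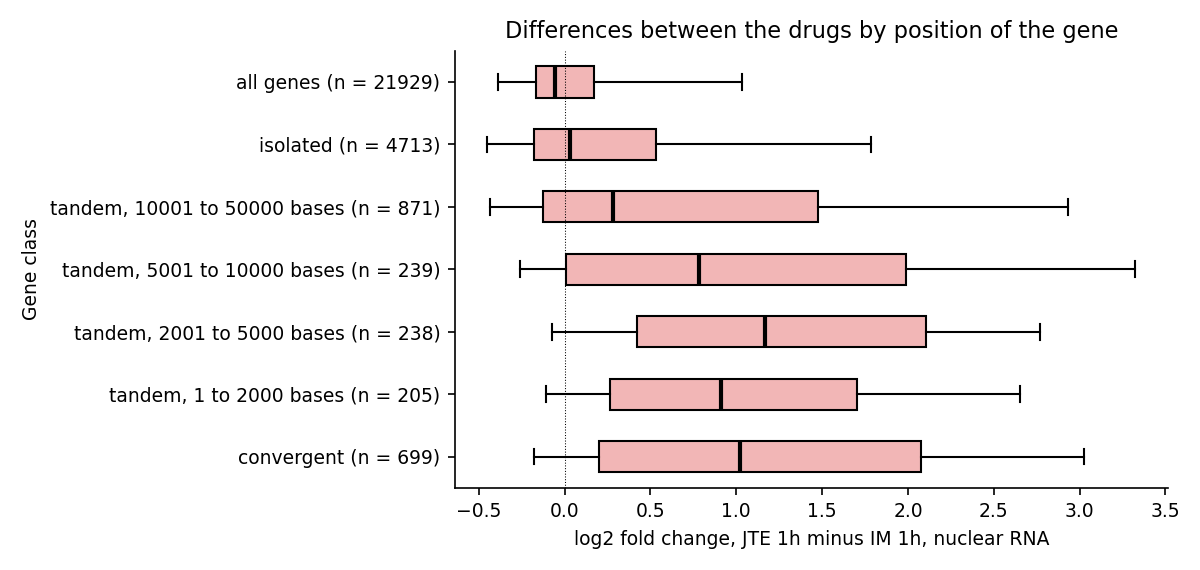
Nuclear RNA log2 fold changes of JTE 1h minus IM 1h by gene class, with the number of genes tested in brackets. Boxes span the 25th to 75th percentile with the median as a line, and whiskers reach the 10th and 90th percentile. The median is near 0 for isolated genes (0.03) and highest for tandem genes at over 2000 and up to 5000 bases (1.17).

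Each library was then scored by the mean log2(CPM + 0.5) of the tandem genes minus that of the isolated genes. The scores use only genes that passed the filter on low counts (682 tandem, 699 convergent and 4713 isolated). The filter may add to the differences between groups, since a gene can pass through the group in which it is high. No score was taken with the limit by CTRL. The tandem score was 0.279, 0.250 and 0.367 in JTE 1h replicates 1 to 3, and -0.232, -0.201 and -0.139 in IM 1h. All JTE 1h libraries stood above 0 and all IM 1h libraries below it, where CTRL also lay (-0.147 ± 0.068, SD, n = 3), although the 0 of the score is set by its formula alone. IM 1h was below the CTRL library of the same number in 3 of 3 pairs for both scores (tandem -0.210, -0.157 and -0.075 in CTRL), which was not tested. The mean was 0.299 ± 0.061 with JTE 1h and -0.191 ± 0.047 with IM 1h (SD, n = 3 each), a difference of 0.489, and libraries of the same number differed by 0.511, 0.451 and 0.506. The convergent score behaved alike, with 0.231 ± 0.054 for JTE 1h, -0.250 ± 0.037 for IM 1h and -0.192 ± 0.072 for CTRL. Without any filter or logarithm, the 1043 tandem genes took 0.173, 0.157 and 0.169% of all counts with JTE 1h and 0.0933, 0.107 and 0.0993% with IM 1h. Both scores depend on the pseudocount in size but not in sign.

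**Figure D3:**
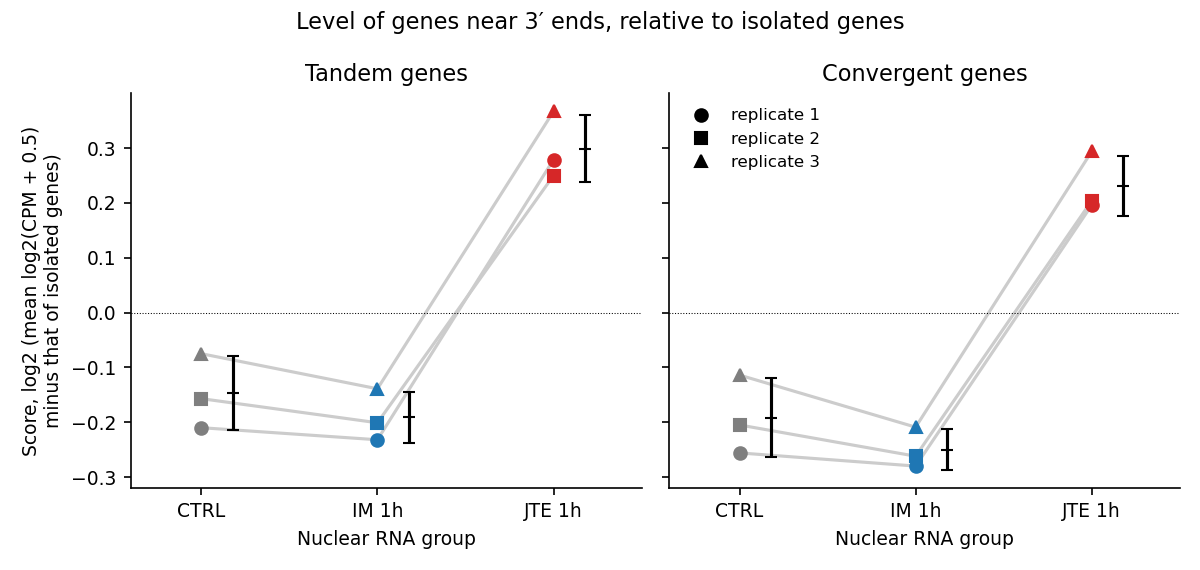
Tandem and convergent scores of the 9 nuclear libraries, on a log2 scale relative to isolated genes, over genes that passed the filter on low counts. Symbols mark replicates 1 to 3, grey lines join libraries of the same number, and black bars give the group mean and SD. All JTE 1h libraries lie above 0 (0.250 to 0.367 for tandem genes), whereas CTRL and IM 1h lie below it.

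Of the 8 tandem genes with the smallest p, 7 are described: ZNNT1, GSTO2, SPOCK2, PYGM, IQCN, H3C6 and GCNA. GSTO2, an omega class glutathione transferase, starts 1414 bases behind its paralog GSTO1 and held 9.19, 7.21 and 10.8 CPM against 1.51, 1.13 and 1.09 CPM (log2 fold change 2.88, SE 0.239, adjusted p = 2.2e-07). The groups did not overlap. GCNA, a germ cell nuclear protein gene 2514 bases behind OGT, held 5.24, 4.55 and 5.89 CPM against 0.539, 1.09 and 1.18 CPM (log2 fold change 2.46, SE 0.266, adjusted p = 4.19e-06). SPOCK2, a testican proteoglycan, rose by 3.17 behind ASCC1, and PYGM, the muscle glycogen phosphorylase, by 1.91 behind the splicing factor gene SF1. IQCN (3.79) lies 5251 bases behind JUND, the lncRNA ZNNT1 (2.27) lies 8249 bases behind ZNF706, and the histone gene H3C6 (1.90) lies 6716 bases behind H2AC8. The upstream genes of these 7 differed by -0.16 to 0.02, and CDC42EP2, behind POLA2, was the 1 tandem gene called lower, at -0.77. Of the 682 tandem genes tested, 563 had a log2 fold change above 0, beside 8429 of all 21929 genes and 6749 of 12741 under 10 CPM. The filter may add to this count, since a gene can pass through the group in which it is high. With a mean of 0.5 CPM or more in CTRL, 282 of 374 tandem genes (75.4%) had a higher mean with JTE 1h, beside 31.6% of all such genes.

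Of 38 tested microRNA host genes, 2 (5.26%) were higher and none lower, a share below the 7.42% of all genes tested. MIRLET7IHG, the host of let-7i, starts 2273 bases behind MON2 and held 18.8, 16.8 and 17.4 CPM with JTE 1h against 5.76, 6.39 and 5.03 CPM with IM 1h (log2 fold change 1.62, SE 0.178, adjusted p = 4.8e-06). MIR155HG, the host of miR-155, held 1.36, 0.629 and 0.847 CPM against 0.539, 0.261 and 0.296 CPM, and its call (adjusted p = 0.0455) was lost in 4 of the 6 fits that left out 1 library, at adjusted p of 0.0787 to 0.268, and with DESeq2 (adjusted p = 0.167). Of 51 replication-dependent histone genes tested, whose mRNAs end without a poly(A) tail, 3 (5.88%, also below the share of all genes) were higher (H2BC6, H3C6 and H2BC14) and none lower, with a median of -0.16 against -0.05 over all genes. H2BC6 held 10.1, 11 and 11.7 CPM against 5.44, 5.09 and 4.73 CPM, and starts 710 bases behind H2BC5. H2BC14 held under 1 CPM in every library and starts 3744 bases behind H3C10.

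Genes named as antisense transcripts were split, with 39 of 816 higher and 12 lower (median -0.07), and divergent transcripts likewise, with 9 of 313 higher and 4 lower (median -0.10). Neither share of higher genes reached the 7.42% of all genes tested. If both strands were counted, values of both kinds can hold reads of the opposite strand. BCAN-AS1 held 31.7, 30.8 and 29.9 CPM with JTE 1h and 14.2, 17.7 and 16.6 CPM with IM 1h. GJD2-DT had 30 counts over the JTE 1h libraries and none over the IM 1h libraries, which makes it at least 9.21-fold higher against a floor of 3 counts over the group. Of 70 annotated readthrough genes tested, whose models join neighboring genes, 7 were higher and none lower. This share of 10% was near the 7.42% of all genes tested and below the 12.5% of genes under 10 CPM. Among the 7 was ANKHD1-EIF4EBP3 (7.01, 7.30 and 5.69 CPM against 3.55, 4.26 and 3.50 CPM). Pairs that could not be assigned to 1 gene were not counted, and which pairs over shared exons went to these models is not stated.

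The 128 genes that were lower with JTE 1h were shorter than the rest. Their median span was 2671 bases against 15970 over all genes tested, and 8 of their 47 protein-coding genes (17.0%) had 1 exon block against 2.72% of all protein-coding genes tested. CITED2, a transcriptional co-regulator that binds CBP and p300, had the largest fall in nuclear RNA among the genes named. It held 28.5, 42.5 and 34.4 CPM with JTE 1h, 90.4, 94.8 and 103 CPM with IM 1h, and 53.9, 56.6 and 59.2 CPM in CTRL. The groups did not overlap, and the drugs lay on opposite sides of CTRL (JTE 1h against IM 1h, log2 fold change -1.45, SE 0.125, adjusted p = 3.33e-07). Against the shared CTRL, CITED2 fell by 0.69 with JTE 1h and rose by 0.77 with IM 1h, and both passed the test. It was the only one called of 7 tested ID, SMAD and CITED genes, whose median was -0.40.

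None of the other 9 of the 10 largest falls passed the test between IM 1h and CTRL. SGK1, a kinase gene induced by serum and glucocorticoids, held 3.38, 3.48 and 4.40 CPM with JTE 1h, 7.32, 6.70 and 9.37 CPM with IM 1h and 6.57 to 8.07 CPM in CTRL (log2 fold change -1.05, SE 0.177, adjusted p = 0.00044). DUSP1, a phosphatase of MAP kinases, held 6.93, 8.27 and 8.55 CPM against 14.2, 16.2 and 18.7 CPM, with 13.9 to 16.2 CPM in CTRL (log2 fold change -1.05, SE 0.128, adjusted p = 1.48e-05). BTG2, an antiproliferative gene, held 8.86, 9.82 and 11 CPM against 18.5, 15.9 and 24.2 CPM (log2 fold change -0.98, SE 0.168, adjusted p = 0.000564). All 3 genes were also called lower with JTE 1h than in CTRL. FRAT1, ZNF526, ZBTB47, the lncRNAs PRKAR2B-AS1 and SCAT2, and CDC42EP2 completed the 10 largest falls, at -0.77 to -0.97. The calls of PRKAR2B-AS1, SCAT2 and CDC42EP2 were each lost without 1 library: PRKAR2B-AS1 without IM 1h replicate 2 (adjusted p = 0.0586), SCAT2 without IM 1h replicate 1 (adjusted p = 0.0547) and also after thinning (adjusted p = 0.0719), and CDC42EP2 without IM 1h replicate 1, JTE 1h replicate 1 or JTE 1h replicate 2 (adjusted p = 0.0547 to 0.105).

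Genes downstream of BCR-ABL1 were read by list, beside the 7.42% higher and 0.584% lower of all genes tested. Of 11 tested STAT5 targets, SOCS3 and CISH, feedback inhibitors of the JAK-STAT pathway, were higher with JTE 1h and none was lower. SOCS3 held 25.4, 24.0 and 27.6 CPM with JTE 1h, 5.92, 6.57 and 4.54 CPM with IM 1h, and 48.5, 52.3 and 64.2 CPM in CTRL. The 3 groups did not overlap, and JTE 1h lay between the others (log2 fold change 2.17, SE 0.202, adjusted p = 1.68e-06, 4.51-fold). CISH had the same order, with 43.3, 59.0 and 59.8 CPM for JTE 1h, 21.5, 30.7 and 23 CPM for IM 1h and 86.5, 116 and 133 CPM for CTRL (log2 fold change 1.11, SE 0.182, adjusted p = 0.000538). Against the shared CTRL, SOCS3 fell by 1.10 with JTE 1h and by 3.27 with IM 1h, and CISH by 1.05 and by 2.15, and all 4 passed the test. In these 2 genes the drugs thus moved the same way from CTRL, IM 1h further than JTE 1h. SOCS1, of the same list, had the other order: 0.783, 1.02 and 1.09 CPM with JTE 1h, 1.45, 1.87 and 1.48 CPM with IM 1h, and 2.46, 2.87 and 3.66 CPM in CTRL. It passed the test against CTRL with JTE 1h (log2 fold change -1.63) but not with IM 1h (-0.891). Between the drugs it was not called (-0.739, adjusted p = 0.0741, edgeR).

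**Figure D4:**
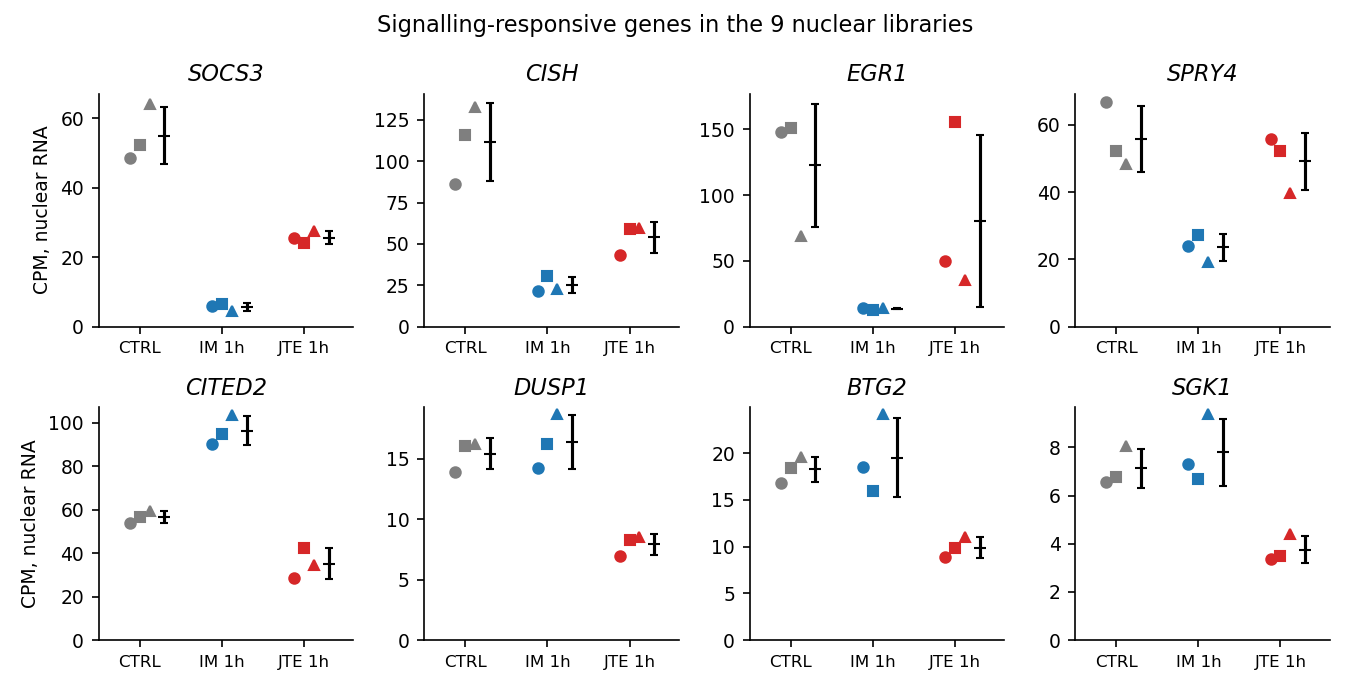
Nuclear RNA level in CPM of 8 genes in CTRL, IM 1h and JTE 1h. Points are libraries (circle, square and triangle for replicates 1, 2 and 3) and bars give the mean and SD. SOCS3 and CISH fall below CTRL with both drugs and lower with IM 1h, EGR1 is spread from 35.7 to 155 CPM with JTE 1h, and DUSP1, BTG2 and SGK1 are lower with JTE 1h than in both other groups.

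SOCS3 and CISH are known targets of STAT5, and the RefSeq promoter of CISH (GRCh38.p14, chr3:50611725-50612024, − strand, 250 bases before to 50 after the start) is shown because it holds the STAT motif TTCNNNGAA, which reads the same on both strands, at 4 places, in capitals.
CISH promoter: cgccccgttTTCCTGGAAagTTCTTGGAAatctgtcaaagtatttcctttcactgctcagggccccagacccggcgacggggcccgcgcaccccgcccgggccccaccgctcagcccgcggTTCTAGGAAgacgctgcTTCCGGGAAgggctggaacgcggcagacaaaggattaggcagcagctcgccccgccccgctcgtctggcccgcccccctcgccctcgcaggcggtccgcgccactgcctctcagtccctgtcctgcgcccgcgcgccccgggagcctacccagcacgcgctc
One match or more was in 7.66% of 35116 RefSeq promoters of this length, and 2 or more in 0.456%. Of the 14 STAT5 targets listed, 10 had a promoter in the table, and CISH and BCL6 were the 2 with a match. BCL6 differed by -0.60 and was not called, and neither of the 2 RefSeq windows of SOCS3 holds these letters, though neither spans the gene start in the annotation used for the counts, so they say nothing of the promoter at that start.

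Genes of the ERK arm were mixed. Of 12 tested feedback genes, SPRY4, PHLDA1 and SPRED3 were higher and none was lower, with a median of 0.03. SPRY4, an inhibitor of receptor tyrosine kinase signaling, held 55.7, 52.3 and 39.7 CPM with JTE 1h, 24.1, 27.3 and 19.2 CPM with IM 1h and 67.0, 52.3 and 48.3 CPM in CTRL (log2 fold change 1.06, SE 0.294, adjusted p = 0.0428). Its 2 drug groups did not overlap, yet the call was lost in each of the 6 fits that left out 1 library (adjusted p of 0.052 to 0.176), with DESeq2 (adjusted p = 0.0536) and after thinning to equal depth (adjusted p = 0.0666). SPRED3 and PHLDA1 stood apart from SPRY4 in that they were also higher than in CTRL. SPRED3 is a tandem gene 4597 bases behind PSMD8 (3.79, 3.00 and 4.56 CPM against 0.969, 0.957 and 0.937 CPM), and PHLDA1 starts 2655 bases behind NAP1L1 (3.38, 2.18 and 4.16 CPM against 1.02, 1.26 and 0.740 CPM).

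Of 24 tested immediate early genes, EGR1 and EGR2 (8.33%, near the share of all genes) were higher and DUSP1, BTG2 and ZFP36L2 were lower, with a median of 0.05. EGR1, a zinc finger factor induced within minutes by ERK, held 50, 155 and 35.7 CPM with JTE 1h against 13.8, 13.0 and 13.9 CPM with IM 1h, and 148, 151 and 68.7 CPM in CTRL. The IM 1h libraries agreed closely while those of JTE 1h spanned the range of CTRL (log2 fold change 2.56, SE 0.566, adjusted p = 0.016). That call was lost with each IM 1h library left out (adjusted p of 0.063 to 0.0693) and in the fit of only these 6 libraries (adjusted p = 0.128). EGR2 stayed under 1 CPM in every library, and its call was lost without IM 1h replicate 3 (adjusted p = 0.0527) or JTE 1h replicate 2 (adjusted p = 0.0551), with DESeq2 (adjusted p = 0.0514) and after thinning (adjusted p = 0.0507). ZFP36L2, which binds AU-rich mRNA, held 66.2, 69.1 and 58.7 CPM against 110, 93.1 and 115 CPM (log2 fold change -0.71, SE 0.109, adjusted p = 0.000167). FOS differed by 1.07 without passing the test (adjusted p = 0.309).

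None of 22 signaling genes and none of 9 genes of the MYC network was called (edgeR), BCR differing by -0.11 (SE 0.113) and ABL1 by -0.10 (SE 0.114). MYC held 219, 288 and 232 CPM with JTE 1h and 203, 246 and 156 CPM with IM 1h, against 336, 400 and 366 CPM in CTRL. The drug groups overlapped (log2 fold change 0.29, SE 0.177, adjusted p = 0.468). All libraries of both drugs lay below all CTRL libraries. Against CTRL, MYC differed by -0.58 with JTE 1h and by -0.87 with IM 1h. Neither passed the test (edgeR without a block, adjusted p = 0.0504 and 0.149). None of 27 erythroid genes, 85 cytosolic ribosomal protein genes, 24 ribosome biogenesis genes or 19 stress genes was called, with medians of -0.12, -0.05, -0.07 and -0.10. Of all genes with a mean of 10 CPM or more, only 0.392% were called higher and 0.196% lower. At these shares, lists of abundant genes of this size would hold few calls or none.

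The 3′ end machinery itself was called once. Of 21 cleavage and polyadenylation genes, PCF11, a subunit of cleavage factor II that binds the RNA polymerase II tail, was higher, with 226, 194 and 207 CPM for JTE 1h, 147, 116 and 128 CPM for IM 1h and 127, 111 and 102 CPM for CTRL. The groups did not overlap between the drugs (log2 fold change 0.68, SE 0.115, adjusted p = 0.000448). CPSF3, which encodes the target of JTE-607, held 151, 137 and 138 CPM against 174, 130 and 132 CPM (log2 fold change -0.04, SE 0.162, adjusted p = 0.955), and its sign changed with the scaling. None was called of 21 termination and elongation genes, 15 Integrator genes, 7 histone 3′ processing genes, 11 SR protein genes, 7 splicing kinases, 20 hnRNP genes, 26 snoRNA host genes, 132 snoRNAs and scaRNAs, 12 genes of chimeras, 10 abundant lncRNAs or 36 mitochondrial genes. Beside these counts stand 7.42% higher and 0.584% lower of all genes tested, and 0.392% and 0.196% of those with a mean of 10 CPM or more. Of 422 zinc finger (ZNF) genes tested, 7 were higher (1.66%, beside 7.42% of all genes) and 6 lower (1.42%, beside 0.584%). ZNF526 had the largest fall named (17.4, 19.2 and 19.7 CPM against 33.0, 32.5 and 37.3 CPM). In mRNA, 23 of 412 ZNF genes were lower and 0 higher, where 0.669% of all genes tested were lower.

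Markers of other cell types moved in 2 cases. CSF1R, a receptor of monocytes, held 2.97, 3.14 and 2.95 CPM with JTE 1h against 1.24, 1.39 and 1.48 CPM with IM 1h, and raised the summed monocyte list to 3.59 to 3.77 CPM against 1.35 to 1.97 CPM, with 3 of its 4 genes at a mean under 1 CPM in both groups. Its 3′ end lies 149 bases from that of HMGXB3 on the other strand. CD79A, a B cell receptor gene, had 19 counts against 2 and starts 4194 bases behind RPS19. The call of CSF1R was lost without IM 1h replicate 1 (adjusted p = 0.0723) or 2 (adjusted p = 0.0525), and that of CD79A without IM 1h replicate 1, IM 1h replicate 3 or JTE 1h replicate 3 (adjusted p of 0.101 to 0.172) and with DESeq2 (adjusted p = 0.113). The part of such cells in the results was not tested. No T cell, stromal or epithelial marker was called.

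The same drugs were then compared in mRNA, from libraries of their own. There 197 of 18095 genes tested (1.09%) were called, 76 (0.42%) higher with JTE 1h and 121 (0.669%) lower. Of the 76, 74 were also called higher in nuclear RNA, which is 7.61% of the 972 nuclear genes that were testable in both. Of the 121, 20 were also lower in nuclear RNA, which is 23% of 87 nuclear genes. The 972 genes had a median of 1.55 in nuclear RNA and 0.55 in mRNA, whereas the 87 lower genes had -0.78 and -0.82. Both sets were picked by their nuclear values, which itself favors larger nuclear medians. Picked by mRNA, the 76 higher genes had medians of 2.25 in nuclear RNA and 2.15 in mRNA. The 121 lower genes had -0.385 and -1.11. Over the 16728 genes that both fractions could test, nuclear and mRNA log2 fold changes had a Pearson correlation of 0.515, given as a description since genes are not replicates. Of 496 tandem genes tested in mRNA, 27 were higher and none lower, with a median of 0.26. The mRNA count fell to 62 without JTE 1h replicate 3, 100 without IM 1h replicate 2, 112 without IM 1h replicate 1, 113 without IM 1h replicate 3 and 126 without JTE 1h replicate 2, and to 1 gene when only these 6 libraries were fitted.

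TSPOAP1 was the clearest rise in mRNA, with 23.5, 31.1 and 37.3 CPM for JTE 1h against 2.25, 3.14 and 2.30 CPM for IM 1h (log2 fold change 3.58, SE 0.289, adjusted p = 2.08e-07). SOCS3 held 14.4, 10.2 and 15.2 CPM against 4.76, 3.33 and 2.07 CPM (log2 fold change 1.98, SE 0.284, adjusted p = 0.000434). CISH held 37.6, 31.4 and 17.8 CPM against 22.1, 16.5 and 8.91 CPM, higher in each pair of the same number, and was called with the replicate block (adjusted p = 0.0267) and without the low-count filter (adjusted p = 1.25e-05), but not in the filtered fit without a block (adjusted p = 0.247). EGR1 (log2 fold change 2.91, adjusted p = 0.0428) was not called with the block (adjusted p = 0.0512), nor in 5 of the 6 fits that left out 1 library, all but the one without IM 1h replicate 1 (adjusted p of 0.0779 to 0.211). CITED2 was lower in mRNA too (53.8, 39.5 and 27.7 CPM against 117, 101 and 117 CPM). RBM15, a partner of the m6A methyltransferase, held 28.9, 33.5 and 26.6 CPM in mRNA against 62.9, 59.1 and 59.6 CPM (log2 fold change -1.03, SE 0.0942, adjusted p = 8.21e-07), and MYLIP and RNF169, both E3 ubiquitin ligase genes, fell by 1.01 and 0.72. In nuclear RNA these 3 differed by -0.26, -0.45 and -0.23 and were not called.

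**Figure D5:**
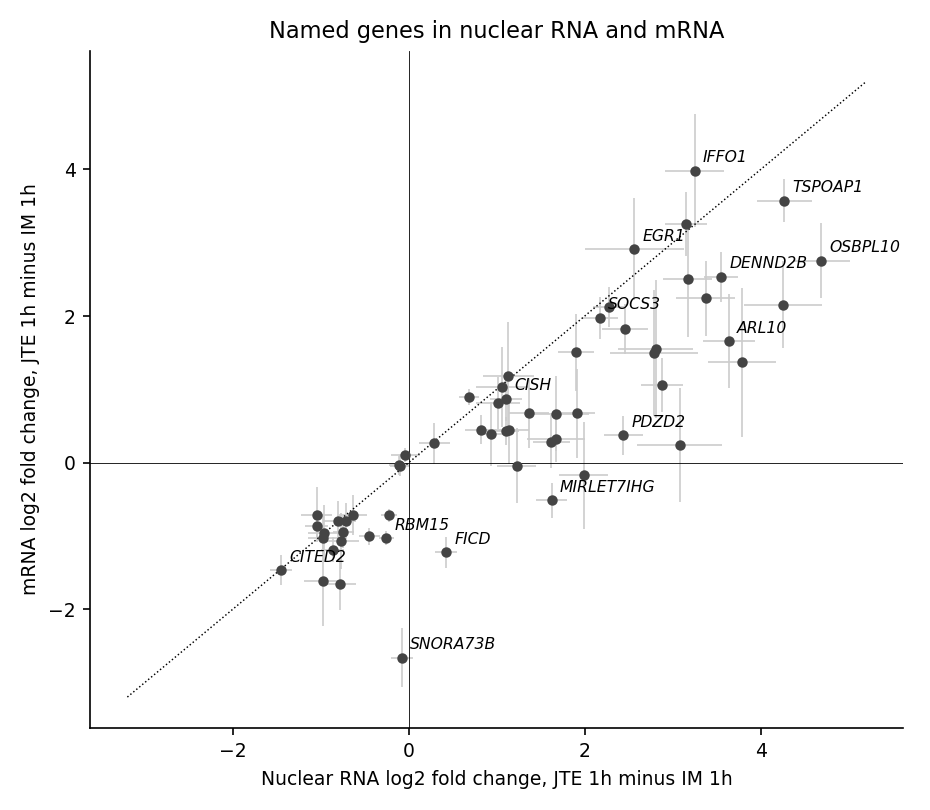
Log2 fold changes of JTE 1h minus IM 1h in nuclear RNA (horizontal) and mRNA (vertical) for the named genes tested in both, except GJD2-DT and 1 not reported here, with standard errors as bars and equality as a dotted line. Most rises lie below the line, such as PDZD2 at 2.44 in nuclear RNA and 0.37 in mRNA, while SOCS3 and CITED2 lie close to it. Most genes were named by their nuclear values or by the interaction, a choice that itself favors larger nuclear values.

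The difference between fractions was tested as an interaction over the 12 libraries. Of 19855 genes, 14 (0.0705%) were called, all with a higher value in nuclear RNA, and with the replicate block 201 were called. MIRLET7IHG was 1.62 in nuclear RNA and -0.52 in mRNA (difference 2.16, SE 0.267, adjusted p = 0.00547). In mRNA it held 2.36, 3.47 and 2.24 CPM with JTE 1h and 3.66, 4.36 and 3.54 CPM with IM 1h. PDZD2, a PDZ domain gene, held 29.4, 22.7 and 28.5 CPM against 4.09, 5.48 and 5.23 CPM in nuclear RNA, and 1.31, 1.09 and 1.55 CPM against 1.15, 0.797 and 1.10 CPM in mRNA (difference 2.09, SE 0.311, adjusted p = 0.0276). SNORA73B, a snoRNA within SNHG3 and RCC1, was level in nuclear RNA (219, 271 and 297 CPM against 267, 282 and 284 CPM) and lower in poly(A) RNA (0.419, 0.673 and 0.694 CPM against 4.39, 3.98 and 3.03 CPM), with a difference of 2.598 (SE 0.265, adjusted p = 0.000847). Other snoRNAs shared the lower level: of 43 tested in mRNA, 11 were called lower and 0 higher, with a median of -1.36. FICD, an enzyme that modifies the chaperone BiP, was 0.42 and -1.22 (difference 1.66, adjusted p = 0.0202). Leaving out 1 library at a time left 2 to 16 genes called. The call of PDZD2 was lost in 8 of these 12 fits (adjusted p of 0.0502 to 0.0897) and that of FICD in 7 (adjusted p of 0.0502 to 0.0897), while SNORA73B and MIRLET7IHG were called in each.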

How the data were processed

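The files hold, for each gene, the raw count of read pairs as deposited by the authors, who made it by aligning with STAR to hg38 (GRCh38.p14) with introns of at most 10000 bases, removing duplicates without molecular identifiers, and counting uniquely mapped pairs over exons with featureCounts. Libraries were stranded, but no strand option is stated, and pairs that could not be assigned to a single gene were not counted. The annotation release is not given in the sources used here. GENCODE 44 gave positions and names for 57532 of 58243 gene IDs. Nuclear totals were 19803825 to 25103205 in the 9 libraries used, and intervals and floors cover counting error only.

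Each fraction was fitted once over all its libraries (15 nuclear, 27 mRNA) with edgeR 4.0.16 in R 4.3.3: filterByExpr, TMM scaling, and the robust quasi-likelihood test with Benjamini-Hochberg adjustment over all genes tested. A call needed a log2 fold change beyond 0.6 together with an adjusted p under 0.05. The difference between fractions was an interaction term over the 12 JTE 1h and IM 1h libraries. Alternatives were DESeq2 1.42.0, other scalings, filters, pseudocounts, distances and thinning, a fit of the 6 libraries alone, a replicate block, and leaving out each library. The fits were tested on simulated data. Libraries of a group differed by more than counting noise, so each counted as 1 replicate.

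Replicate numbers come from the sample titles. Libraries of the same number deviated together from their group means (correlations of JTE 1h with IM 1h of 0.65, 0.641 and 0.787 in nuclear RNA over 9209 genes, and 0.83, 0.849 and 0.826 in mRNA over 8752 genes), so the numbers were taken to pair the samples.

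The text names the 10 called genes with the largest change in each direction (with a symbol, at least 5 CPM on average in the higher drug group, and drug groups that do not overlap), the 8 called tandem genes with the smallest p, called genes of the signaling lists, up to 4 called genes of other lists, 7 genes whatever their value (SOCS3, CISH, EGR1, MYC, CPSF3, BCR and ABL1), and the leading genes of the mRNA and interaction tests. A few genes of these sets are left to counts, and some are not reported here. The comparison, gene lists and classes were chosen with earlier results of these data known.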

Additional observations from a re-analysis of the deposited data

Results flagged for a closer look

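The difference between JTE 1h and IM 1h itself differed between nuclear RNA and mRNA for 14 genes by the interaction test (edgeR), all with the higher value in nuclear RNA. Of the 4 named, SNORA73B had an interaction of 2.598 on the log2 scale, MIRLET7IHG 2.16, PDZD2 2.09 and FICD 1.66. Nuclear RNA and poly(A) RNA were prepared with different kits, so fraction and preparation cannot be told apart.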

How the results depend on the processing

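The nuclear total and the count of higher genes stayed within 1.5 times of 1755 and 1627 under all alternatives run. The 128 lower genes became 66 with DESeq2, 67 with TMM on expressed genes, 83 with TMM on isolated genes, 76 with total counts only, 69 with upper-quartile factors, 79 with only the 6 libraries, 78 after thinning, 225 without the fold threshold, 237 with the replicate block, and 58 to 113 with 1 library left out. In mRNA, 134 genes were higher without the low-count filter, and with only the 6 libraries 1 gene was called, 1 higher and 0 lower. Leaving out 1 library gave 62 to 194 genes in mRNA, 28 to 79 higher and 34 to 115 lower. The interaction gave 127 genes without the filter, 201 with the replicate block and 2 to 16 with 1 library left out. The tandem score difference was 0.716 with a pseudocount of 0.1, 0.268 with 2, 0.364 at 50000 bases and 0.56 over genes with a mean of 50 or more counts, and the convergent one 0.732, 0.252 and 0.379 for the first 3 settings. The sign turned for CPSF3 (0.041 with TMM on expressed genes, 0.008 on isolated genes, 0.027 with total counts only, 0.035 with upper-quartile factors, 0.026 with the 6 libraries, 0.028 after thinning, 0.108 without IM 1h replicate 1), for ABL1 (0.002) and SNORA73B (0.055) in nuclear RNA without JTE 1h replicate 1, and in mRNA without IM 1h replicate 3, JTE 1h replicate 1 or JTE 1h replicate 2 for ABL1 (0.077, 0.016, 0.015) and BCR (0.045, 0.004, 0.001), none of which was called. With 1 library left out, the ranges of these were -0.105 to 0.108 for CPSF3, -0.148 to 0.002 for ABL1 and -0.181 to 0.055 for SNORA73B in nuclear RNA, and -0.169 to 0.077 for ABL1 and -0.118 to 0.045 for BCR in mRNA. The cause was not tested. Beside the values given in the report, the replicate block changed no other call of a named gene between the drugs or fractions. The contrasts against CTRL were not fitted with it. With 3 libraries a group and few counts, genes under 1 CPM are the least precise.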

Other observations

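Nuclear libraries of K562 cells under hyperosmotic KCl were scored in the same way, over the same genes. These had passed a filter that a gene can pass through any group in which it is high, KCl included. The tandem score was 0.167, 0.284 and 0.423 in the 3 KCl libraries, and the values overlapped those of JTE 1h (0.250 to 0.367). After 18 h of IM it was -0.412, -0.297 and -0.235, all below the 3 CTRL libraries (-0.210 to -0.075). These values stand with no test.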
